A study of Mus musculus with 6 samples.

Results

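The interleukin-1 (IL-1) family was examined in liver F4/80-positive cells as 9 genes chosen by name, out of 49315 genes counted. They were the cytokines *Il1a*, *Il1b*, *Il18* and *Il33*, the antagonists *Il1rn* and *Il18bp*, the signalling receptor chains *Il1r1* and *Il1rap*, and the decoy receptor *Il1r2*. The cells came from 3 WT mice and 3 Lpcat3 KOMac mice, and each library was treated as 1 mouse. All mice carried a floxed *Lpcat3* gene (Lpcat3 fl/fl). The Lpcat3 KOMac mice had in addition 1 copy of LysM Cre, a recombinase inserted in the lysozyme gene *Lyz2* and active in myeloid cells, whereas their WT littermates had none (LysM +/+). The mice were on a C57BL/6N background, had a diet with 60% fat for 16 weeks and got no other treatment, and the study used both sexes, which the sample labels do not give. The liver was digested with collagenase, hepatocytes were spun down, and F4/80, a surface protein of Kupffer cells (the resident liver macrophages), served for magnetic sorting of the remaining cells.

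IL-1α and IL-1β bind the receptor chain IL1R1, which signals only after it has taken up the accessory protein IL1RAP. The receptor antagonist encoded by *Il1rn* binds IL1R1 without this step, and IL1R2 binds IL-1 but lacks a signalling domain. IL-18 is trapped by its binding protein IL-18BP, and IL-33 signals through a receptor encoded by *Il1rl1*. Macrophages are a classical source of IL-1β, whose precursor is cut by caspase-1 before release.

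Library totals ranged from 44954224 to 71392812 counts. Of the 9 members, 8 passed the expression filter of edgeR together with 16134 genes in all, and *Il1r2* did not. Levels are CPM, read counts brought to a common library size with TMM, edgeR's correction for library composition, and differences are log2 fold changes of Lpcat3 KOMac against WT with their standard errors (SE). The targeted gene *Lpcat3* averaged 70.8 CPM in WT (SD 12.5, n = 3) against 24.1 CPM in Lpcat3 KOMac cells (SD 7.99, n = 3), 34% of the WT mean, with no overlap between the groups. Of Kupffer cell transcripts, 8 were examined, *Adgre1* (F4/80), *Clec4f* and *Cd5l* among them. They summed to 29695, 41311 and 30665 CPM in WT mice 1, 2 and 3 against 27677, 23391 and 32477 CPM in Lpcat3 KOMac mice. Only 1 of them, *Clec4f*, was lower in every Lpcat3 KOMac mouse than in every WT mouse (5.2% of all genes tested). *Marco* was at 148 CPM in Lpcat3 KOMac mouse 2 and at 999 to 3168 CPM in the other mice. Hepatocyte transcripts were also present, and the sum of 7 of them (*Alb*, *Apoa1*, *Apoa2*, *Ttr*, *Ahsg*, *Fgb*, *Serpina1c*) reached 22345, 2027 and 1893 CPM in the WT mice (1, 2 and 3) against 5117, 13879 and 4894 CPM in the Lpcat3 KOMac mice. WT mouse 1 and Lpcat3 KOMac mouse 2 therefore stood apart, and results are also given without them where they move.

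None of the 8 members tested differed between genotypes at an adjusted p-value under 0.05 in edgeR's quasi-likelihood test. This call was made for 0% of all 16134 genes. *Lpcat3* itself went uncalled in this test, at a log2 fold change of -1.56 (SE 0.26, unadjusted p = 0.00119 in edgeR). DESeq2 did call it (adjusted p = 0.0028). The lack of a call in edgeR therefore does not show that a member was unchanged. At an unadjusted p-value under 0.05 edgeR took 0 of the 8 members, against 2.64% of all genes. This depended on the mice included. Without WT mouse 1 it took 4 of the 8, and 2028 of the 16487 genes then tested. Every Lpcat3 KOMac mouse then had a higher hepatocyte sum than either WT mouse left, so genotype and hepatocyte content cannot be told apart there. Without WT mouse 3 edgeR took 1 of the 8, and 543 of 16534 genes. Both fits called 0 of the 8 at an adjusted p-value under 0.05. DESeq2 called 0 of the 8 as well, against 0.111% of the 13510 genes to which it gave an adjusted p-value, and limma-voom called 0. In 0 of the 8 members did the mice of the 2 genotypes separate without overlap, against 7.49% of all genes tested. The fitted log2 fold changes ran from -0.63 for *Il1b* to 0.56 for *Il33*, 5 above 0 and 3 below, with a median of 0.11 beside -0.04 over all genes tested. In such bulk samples, fewer cells of a type and less RNA per cell cannot be told apart.

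**Figure D1:**
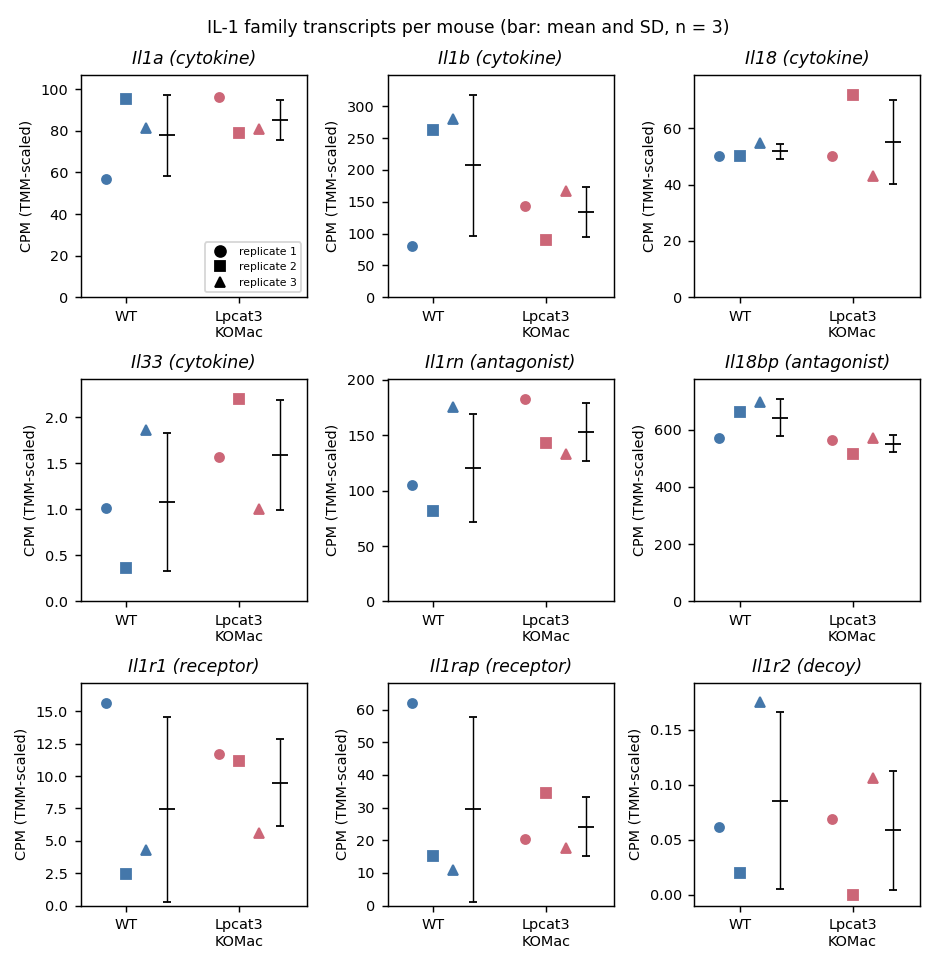
TMM-scaled CPM of the 9 members, 1 point per mouse with the replicate number as its shape, for WT (blue) and Lpcat3 KOMac (red), with the mean and SD of n = 3 beside each group. In every panel the ranges of the genotypes overlap, and *Il1b* spans 80.1 to 279 CPM.

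The cytokine genes *Il1a* and *Il1b* lie close together on the minus strand of chromosome 2. Their upstream sequences are shown because these are the agonists of the IL-1 receptor, and that of an *Il33* start is added as the cytokine with the lowest level. The 250 bases before each start are from RefSeq (GRCm38.p6), written 5′ to 3′ on the gene's own strand, with matches to the TATA box (TATAAA, this strand only) or to the core of the myeloid factor PU.1 (GAGGAA, both strands) in capitals. They lie at chr2:129309973-129310222 (*Il1a*, minus strand), chr2:129371140-129371389 (*Il1b*, minus strand) and chr19:29945540-29945789 (*Il33*, plus strand, the more downstream of its 2 RefSeq starts).
Il1a: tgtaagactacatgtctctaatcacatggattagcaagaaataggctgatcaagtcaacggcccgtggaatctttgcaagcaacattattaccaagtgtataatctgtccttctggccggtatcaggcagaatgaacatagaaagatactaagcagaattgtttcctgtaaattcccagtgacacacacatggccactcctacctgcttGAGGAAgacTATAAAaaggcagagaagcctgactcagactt
Il1b: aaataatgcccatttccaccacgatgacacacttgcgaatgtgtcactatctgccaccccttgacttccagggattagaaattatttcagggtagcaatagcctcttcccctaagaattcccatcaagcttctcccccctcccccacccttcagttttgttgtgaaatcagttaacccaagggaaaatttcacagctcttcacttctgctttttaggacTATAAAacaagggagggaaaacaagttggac
Il33: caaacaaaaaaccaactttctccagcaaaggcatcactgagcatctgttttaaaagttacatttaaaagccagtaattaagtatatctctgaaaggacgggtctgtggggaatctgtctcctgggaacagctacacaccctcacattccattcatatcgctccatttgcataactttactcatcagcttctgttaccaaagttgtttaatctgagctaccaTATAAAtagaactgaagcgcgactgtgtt
The TATA box began 32 bases before the start of *Il1a*, 31 before that of *Il1b* and 29 before that of *Il33*, and 7.59% of 32851 RefSeq windows of this length held one. The PU.1 core stood in the *Il1a* window, just before its TATA box, and in 23.3% of all windows. The window of *Il1b* had no match to it. All 9 members had at least 1 RefSeq start, 13 starts in all, and only the windows of *Il1a*, *Il1b* and *Il33* held a TATA box by these letters. A search of both strands for the NF-κB consensus found it at 1 of the 13 starts, a downstream start of *Il1r1*, and in 7.25% of all windows. Matches are given as sequence only, and no binding was measured.

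*Il1b* (ENSMUSG00000027398, chromosome 2 of GRCm38, 129364570 to 129371139, minus strand) had the lowest fitted value of the members. WT mice 1, 2 and 3 had 80.1, 262 and 279 CPM, and Lpcat3 KOMac mice 1, 2 and 3 had 144, 90.5 and 167 CPM. WT mice 2 and 3 were above every Lpcat3 KOMac mouse, while WT mouse 1 was the lowest of all 6. The log2 fold change was -0.63 (SE 0.51, 95% interval -1.91 to 0.64, adjusted p = 1 in edgeR). The two-sided exact permutation test gave p = 0.6, where 3 mice against 3 cannot go below 0.1. The value lay between -1.02 (without WT mouse 1) and -0.36 (without WT mouse 3) when single mice were left out, and all 6 of these fits kept the negative sign. Reads of *Il1b* reached 13148 counts, and its antisense neighbor *Il1bos*, which shares 25 exonic bases, had at most 130.

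*Il1a* (ENSMUSG00000027399, chromosome 2, 129299610 to 129309972, minus strand), whose precursor is active without caspase-1, was more even. WT mice had 56.7, 95.2 and 81.6 CPM against 96.2, 78.8 and 80.8 CPM for Lpcat3 KOMac mice (in the same order from here on), with WT mouse 1 again the lowest. Its fold range over the 6 mice was 1.70, against 3.49 for *Il1b*. The log2 fold change was 0.13 (SE 0.21, 95% interval -0.37 to 0.64, adjusted p = 1 in edgeR), and it was -0.052 without WT mouse 1. A transcript on the other strand, *Gm14023*, shares 222 exonic bases with *Il1a* and had at most 199 counts.

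*Il18* (ENSMUSG00000039217, chromosome 9, 50554827 to 50581840, plus strand) encodes IL-18, which like IL-1β is cut by caspase-1. Its level was 50.1, 50.4 and 54.9 CPM in the WT group against 50.1, 71.9 and 43.2 CPM in the Lpcat3 KOMac group. The WT values lay within the wider span of the Lpcat3 KOMac values, of which mouse 2 was the highest. The log2 fold change was 0.09 (SE 0.20, 95% interval -0.40 to 0.58, adjusted p = 1 in edgeR), and it turned to -0.13 without Lpcat3 KOMac mouse 2. *Il33* (ENSMUSG00000024810, chromosome 19, 29925114 to 29960718, plus strand), a nuclear cytokine released from damaged cells, gave 1.02, 0.359 and 1.86 CPM in the WT group against 1.57, 2.20 and 0.999 CPM in the Lpcat3 KOMac group. These levels rest on 18 to 114 counts per library, and the log2 fold change was 0.56 (SE 0.63, 95% interval -0.99 to 2.11, adjusted p = 1 in edgeR). It was 0.15 without WT mouse 2 and 1.20 without WT mouse 3. *Il33* was lowest in WT mouse 2 and highest in Lpcat3 KOMac mouse 2, and the sum of 8 stellate cell transcripts (*Lrat*, *Reln* and *Dcn* among them) was likewise lowest in the former and highest, at 274 CPM, in the latter. WT mouse 1 had a higher stellate sum than WT mouse 3 (210 against 183 CPM) but less *Il33*. The endothelial transcripts *Lyve1*, *Kdr*, *Clec4g*, *Ptprb* and *Gpr182* were also lowest in WT mouse 2. The rest of the endothelial list went the other way. *Pecam1* (283 CPM) and *Cdh5* (1158 CPM) were highest in WT mouse 2, and *Stab2* (489 CPM) was higher only in Lpcat3 KOMac mouse 1. The sum of all 8 endothelial transcripts was highest in WT mouse 2 (2161 CPM). The part of stellate or endothelial cell RNA in the *Il33* values was not tested.

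The antagonist genes were among the more abundant members. *Il1rn* (ENSMUSG00000026981, chromosome 2, 24336853 to 24351494, plus strand) gave 105, 81.7 and 175 CPM in the WT group against 183, 143 and 133 CPM in the Lpcat3 KOMac group. WT mice 1 and 2 were below every Lpcat3 KOMac mouse, and WT mouse 3 was within their range. The log2 fold change was 0.34 (SE 0.30, 95% interval -0.41 to 1.09, adjusted p = 1 in edgeR), and it ranged from 0.13 without WT mouse 2 to 0.71 without WT mouse 3. *Il18bp* (ENSMUSG00000070427, chromosome 7, 102014885 to 102018690, minus strand) had the highest level of all members and the smallest spread, a fold range of 1.35 over the 6 mice. WT mice had 570, 660 and 696 CPM against 565, 516 and 570 CPM for Lpcat3 KOMac mice. WT mouse 1 and Lpcat3 KOMac mouse 3 were nearly level, and they were the only mice by which the groups overlapped. Its log2 fold change of -0.22 (SE 0.11, 95% interval -0.48 to 0.04, adjusted p = 1 in edgeR) had the smallest unadjusted p-value of the members, 0.0839, and was negative in all 16 alternative fits. *Il18bp* shares 80 exonic bases with *Numa1* on the other strand, which had up to 10333 counts, so some of its reads may not be its own.

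The receptor chains varied widely from mouse to mouse, with fold ranges of 6.36 for *Il1r1* and 5.61 for *Il1rap*, near that of *Il33* (6.12). *Il1r1* (ENSMUSG00000026072, chromosome 1, 40225080 to 40317257, plus strand) gave 15.6, 2.46 and 4.29 CPM in the WT group against 11.7, 11.1 and 5.63 CPM in the Lpcat3 KOMac group. WT mice 2 and 3 were below every Lpcat3 KOMac mouse, and WT mouse 1 was above all of them. The log2 fold change was 0.35 (SE 0.73, 95% interval -1.47 to 2.16, adjusted p = 1 in edgeR), it was 1.496 without WT mouse 1, and it was -0.071 without WT mouse 2. *Il1rap* (ENSMUSG00000022514, chromosome 16, 26581704 to 26730117, plus strand) gave 61.9, 15.3 and 11.0 CPM in the WT group against 20.4, 34.4 and 17.7 CPM in the Lpcat3 KOMac group, with WT mouse 1 far above the rest. Its log2 fold change of -0.29 (SE 0.72, 95% interval -2.08 to 1.51, adjusted p = 1 in edgeR) rested on WT mouse 1, without which it was 0.87 (SE 0.34, adjusted p = 0.4 in edgeR). With the replicate number as a block it was 0.12. *Il1rap* shares 552 exonic bases with the antisense gene *Gm20319*, which had up to 2194 counts, so its level is uncertain.

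The decoy receptor *Il1r2* (ENSMUSG00000026073, chromosome 1, 40074079 to 40125231, plus strand) was at the edge of detection. It had 4, 1 and 8 counts in WT mice and 4, 0 and 5 counts in Lpcat3 KOMac mice. A count of 0 in Lpcat3 KOMac mouse 2 allows up to 3 counts, or 0.0579 CPM, and these limits cover counting error only. The groups overlapped, and no difference could be detected at this depth. Neutrophils are rich in IL1R2. Of their transcripts, *Ly6g* had at most 3 counts and *S100a8* at most 103 in any library, and the sum of 9, at 82.0 to 159 CPM, was mostly *Csf3r*. Of these 9, 3 were higher in every Lpcat3 KOMac mouse than in every WT mouse (2.29% of all genes tested). They were *S100a8*, *Cxcr2* (at most 15 counts) and *Camp* (at most 11 counts). The cell source of the *Il1r2* reads was not tested.

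Levels of different genes were compared per kilobase of exon (CPM divided by exonic length, mean over the 6 mice). *Il18bp* led with 197 ± 22.3 (SD, n = 6), followed by *Il1b* with 89.4 ± 44.3, *Il18* with 51.8 ± 9.50, *Il1a* with 41.3 ± 7.26 and *Il1rn* with 24.7 ± 7.09. Far lower were *Il1rap* with 2.36 ± 1.67, *Il1r1* with 1.33 ± 0.80, *Il33* with 0.46 ± 0.23 and *Il1r2* with 0.04 ± 0.03 CPM per kilobase (SD, n = 6 each). Ranges over the mice did not overlap between *Il18bp* and *Il1b*, between *Il1rn* and *Il1rap*, or between *Il33* and *Il1r2*, and all other neighbors in this order overlapped. *Il1b* exceeded *Il18* in only 4 of 6 mice, whereas *Il1a* exceeded *Il1rn* in all 6 on this scale. The exonic lengths take in every annotated isoform, which lowers the value of genes with long rare ones, such as the 11360 bases of *Il1rap*.

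The balance of each cytokine with its antagonist was compared within each mouse, as the ratio of the levels per exonic length, in which library size cancels. The ratio of *Il1b* to *Il1rn* came to 2.21, 9.33 and 4.63 in the WT group against 2.29, 1.83 and 3.65 in the Lpcat3 KOMac group. WT mice 2 and 3 had the highest ratios, and WT mouse 1 fell among the Lpcat3 KOMac mice. On the log2 scale the means were 2.19 ± 1.04 in WT and 1.31 ± 0.51 in Lpcat3 KOMac cells (SD, n = 3 each), a difference of -0.88 (SE 0.67, two-sided exact permutation p = 0.3, 0.75 after Benjamini-Hochberg adjustment over the 5 ratios compared). The difference stayed negative with each mouse left out, between -1.40 and -0.37. In reads alone, not divided by length, *Il1b* was above *Il1rn* in 3 of the 6 mice (WT mice 2 and 3 and Lpcat3 KOMac mouse 3) and below it in the other 3. The difference between genotypes is the same with or without the division by length.

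The ratio of *Il1a* to *Il1rn* was 1.51, 3.27 and 1.31 in WT mice and 1.48, 1.54 and 1.71 in Lpcat3 KOMac mice. WT mouse 2 alone set the WT mean apart, and the log2 difference was -0.24 (SE 0.41, two-sided exact permutation p = 0.9) and turned to 0.16 without that mouse. In reads alone *Il1a* was below *Il1rn* in 5 of the 6 mice, all but WT mouse 2, so its place above *Il1rn* in them depends on the length of *Il1rn*, 5535 bases of exon. *Il18* stood well below *Il18bp* in every mouse, with ratios of 0.258, 0.224 and 0.232 in WT mice and 0.260, 0.409 and 0.222 in Lpcat3 KOMac mice. Apart from Lpcat3 KOMac mouse 2 these values were close to one another. The log2 difference was 0.27 (SE 0.27, two-sided exact permutation p = 0.5), and 0.02 without that mouse. Ratios to *Il1r2* rest on its 0 to 8 counts. In the 4 mice with 4 to 8 counts of *Il1r2*, the ratio per length (0.5 counts added to each gene) ran from 1157 to 1858 for *Il1b* and from 6.93 to 67.7 for *Il1r1*. In Lpcat3 KOMac mouse 2, which had 0 counts, the limit of 3 counts makes *Il1b* at least 1564-fold and *Il1r1* at least 57.7-fold higher. Neither ratio separated the genotypes over the 6 mice (two-sided exact permutation p = 0.6 and 0.5).

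**Figure D2:**
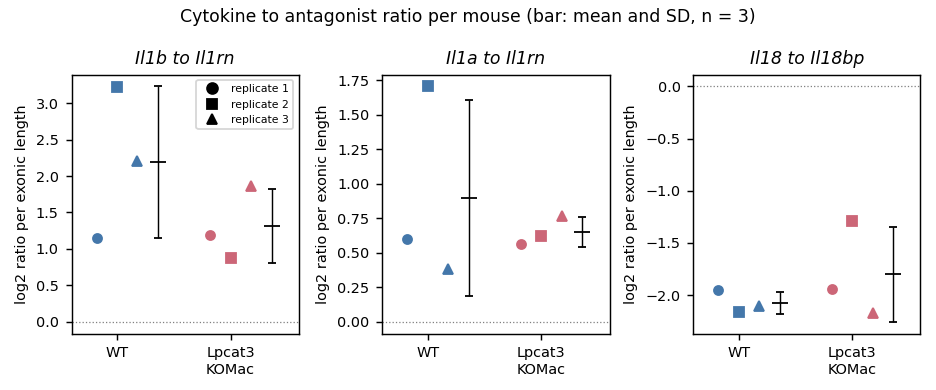
Log2 ratio of cytokine to antagonist per exonic length, 1 point per mouse, for WT (blue) and Lpcat3 KOMac (red), with the mean and SD of n = 3 and a dotted line at equal levels. Per length, *Il1b* and *Il1a* lie above *Il1rn* in all 6 mice (in reads alone, in 3 and 1 of them), *Il18* lies below *Il18bp* in all 6, and the genotypes overlap in each ratio.

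Levels of the members were also set beside the hepatocyte transcripts of the library. From the lowest to the highest hepatocyte sum, the mice ranked WT 3, WT 2, Lpcat3 KOMac 3, Lpcat3 KOMac 1, Lpcat3 KOMac 2 and WT 1. *Il1b* was lower at each step of this order, from 279, 262, 167 and 144 to 90.5 and 80.1 CPM, as did 1.15% of all genes tested. *Il1rap* was higher at each step, from 11.0 to 61.9 CPM, as did 5.41% of all genes tested. *Il1r1* did not follow the order strictly, but was lowest in WT mice 2 and 3 and highest in WT mouse 1. In WT mouse 1 and Lpcat3 KOMac mouse 2, *Il1a* and *Il1b* were both below the other 4 mice (22.9% of all genes tested) and *Il1rap* was above them (21.8%), and the remaining 5 members were mixed. These 3 of the 8 members were not a larger share than the 44.8% of all genes tested that lay outside the other mice on either side.

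In a further fit, edgeR was given the hepatocyte transcripts (their mean log2 CPM) as an added term. The log2 fold change of *Il1b* was then -0.18 (unadjusted p = 0.0944, adjusted p = 0.603 in edgeR). That of *Il1rap* was -0.30 (unadjusted p = 0.0114, adjusted p = 0.491 in edgeR). *Il1a* was at 0.26 and *Il18bp* at -0.17 (unadjusted p = 0.0747 and 0.0548 in edgeR). With this term 1 of the 8 members had an unadjusted p-value under 0.05, as did 1462 of all 16134 genes, against 426 without it. Without WT mouse 1 and Lpcat3 KOMac mouse 2, a setting chosen after seeing the data, 2 mice against 2 remained. Both remaining Lpcat3 KOMac mice (5117 and 4894 CPM) had higher hepatocyte sums than both remaining WT mice (2027 and 1893 CPM). Genotype and hepatocyte content therefore cannot be told apart in this fit. *Il1b* was then -0.80 (SE 0.11, adjusted p = 0.0829 in edgeR), *Il1r1* was 1.37 (SE 0.47, adjusted p = 0.386 in edgeR) and *Il1rap* turned to 0.53 (SE 0.20, adjusted p = 0.433 in edgeR). In that fit 4 of the 8 members had an unadjusted p-value under 0.05, as did 11% of all genes, and 0 of the 8 had an adjusted one. The part of hepatocyte RNA in the levels of the members was not tested.

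**Figure D3:**
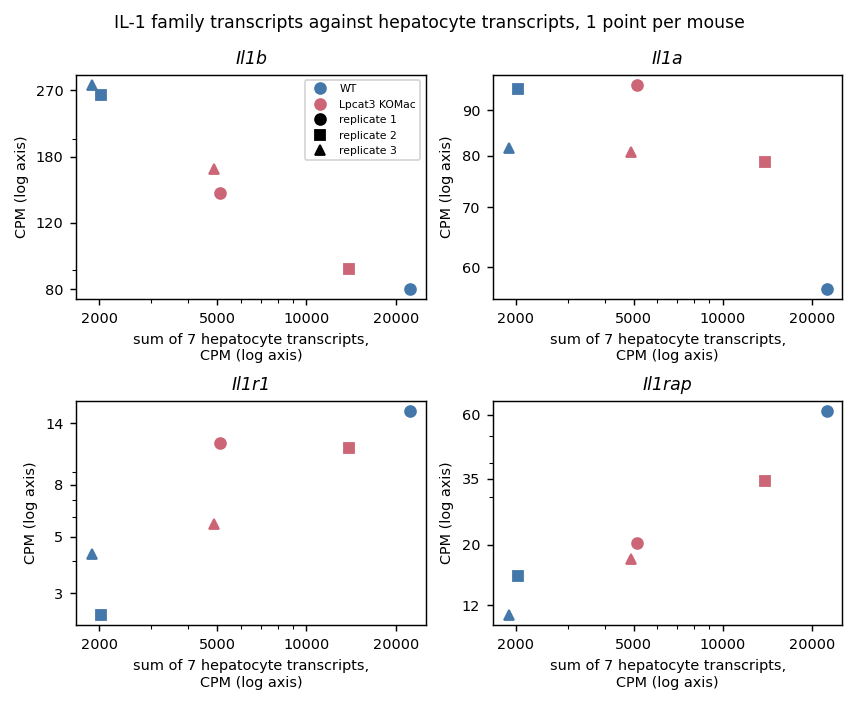
CPM of *Il1b*, *Il1a*, *Il1r1* and *Il1rap* against the sum of 7 hepatocyte transcripts, both on log axes, 1 point per mouse, for WT (blue) and Lpcat3 KOMac (red). *Il1b* is lower and *Il1rap* higher with each step to the right over the 6 mice, and WT mouse 1 is at the far right of each panel.

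**Figure D4:**
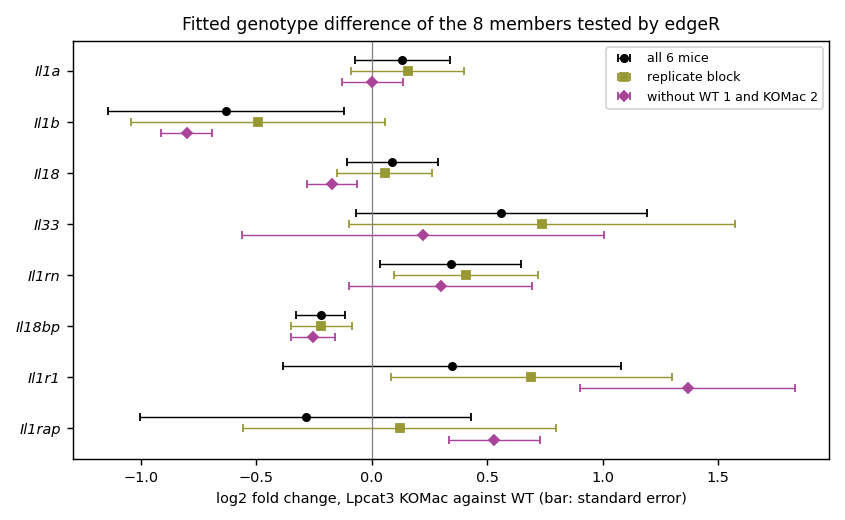
Log2 fold change of Lpcat3 KOMac against WT of the 8 members tested, with standard errors, from edgeR on all 6 mice (black), with the replicate block (olive) and without WT mouse 1 and Lpcat3 KOMac mouse 2 (purple). *Il1b* lies at -0.63, -0.49 and -0.80 in these fits, whereas *Il1rap* changes sign.

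Nearest to *Il1b* in its course over the 6 mice, by Euclidean distance of centred log2 CPM, were *Gm14252* (0.27), *Pde4b* (0.42) and *Gm28720* (0.43). *Pde4b*, a phosphodiesterase that degrades cyclic AMP, was at 31.5, 83.7 and 76.0 CPM in WT and 47.0, 33.2 and 52.6 CPM in Lpcat3 KOMac mice. The unnamed genes were below 1 CPM in every mouse. Of the other members, *Il1a* was the closest at 1.36 and *Il1r1* the farthest at 3.86.

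Of 39 other genes of the IL-1 system found in the files, 32 could be tested, and edgeR called 0 at an adjusted p-value under 0.05. DESeq2 called 0 of them, and it gave no adjusted p-value for *Il1f9*, *Il18rap* and *Il1rl1*. Their median log2 fold change was -0.06 beside -0.04 over all genes, with 12 above 0 and 20 below. At an unadjusted p-value under 0.05 there were 0 higher (1.07% of all genes) and 2 lower (1.57%) in Lpcat3 KOMac cells, both of them inhibitors or modifiers of signalling downstream of the receptor. *Nfkbia*, which encodes the NF-κB inhibitor IκBα, was at 239, 290 and 264 CPM in WT mice and at 208, 143 and 181 CPM in Lpcat3 KOMac mice. Every Lpcat3 KOMac mouse was below every WT mouse (5.2% of all genes), with a log2 fold change of -0.58 (SE 0.16, unadjusted p = 0.0121, adjusted p = 1 in edgeR). *Peli1*, a ubiquitin ligase of IL-1 and Toll-like receptor signalling, was at 98.3, 120 and 106 CPM in WT and at 87.2, 76.6 and 97.0 CPM in Lpcat3 KOMac mice. These groups did not overlap either, with a log2 fold change of -0.32 (SE 0.13, unadjusted p = 0.0464, adjusted p = 1 in edgeR), and the unadjusted p-value was 0.109 with the replicate block.

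Among the 19 signalling genes tested, the adaptor *Myd88*, which couples IL1R1 to its kinases, had a log2 fold change of -0.09 (SE 0.10) and *Irak3*, a kinase-like brake on this pathway, -0.51 (SE 0.66). *Irak3* ranged from 19.9 CPM in Lpcat3 KOMac mouse 2 to 133 CPM in WT mouse 2. *Tnfaip3*, which encodes the NF-κB brake A20, and *Nfkbiz*, an inducible partner of NF-κB, were at -0.45 (SE 0.43) and -0.34 (SE 0.33). *Irak3*, *Tnfaip3* and *Nfkbiz* were each lower in WT mouse 1 and Lpcat3 KOMac mouse 2, the hepatocyte-rich libraries, than in the other 4. This held for 12 of the 32 genes tested here and for 22.9% of all genes. The 8 processing genes tested spanned -0.27 to 0.20. *Casp1*, the protease for IL-1β and IL-18, was at 96.1, 120 and 110 CPM in WT and at 105, 98.7 and 101 CPM in Lpcat3 KOMac mice, a log2 fold change of -0.09 (SE 0.10).

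Receptors for IL-18 and IL-33 were scarce in these cells. *Il18rap* averaged 0.224 CPM (WT) and 0.222 CPM (Lpcat3 KOMac), a log2 fold change of 0.01 (SE 0.49). *Il1rl1* averaged 0.600 and 0.359 CPM, a log2 fold change of -0.72 (SE 0.70, adjusted p = 1 in edgeR), and *Il18r1* did not pass the filter, with 4 to 16 counts per library. At this depth 3 counts correspond to between 0.0462 and 0.0656 CPM. *Sigirr*, an inhibitory receptor of the family, was at 6.57, 0.978 and 1.16 CPM in WT and 3.24, 5.17 and 1.83 CPM in Lpcat3 KOMac mice, highest in the same libraries as *Il1rap*. Of the 5 ligands of the IL-36 group and *Il1f10*, 4 had 0 counts in all 6 libraries (*Il1f5*, *Il1f6*, *Il1f8* and *Il1f10*), and *Il1f9* was at 0.209 and 0.283 CPM on average. The accessory-like receptors *Il1rapl1* and *Il1rapl2* also had 0 counts throughout, which allows up to 3 counts per library.

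**Figure D5:**
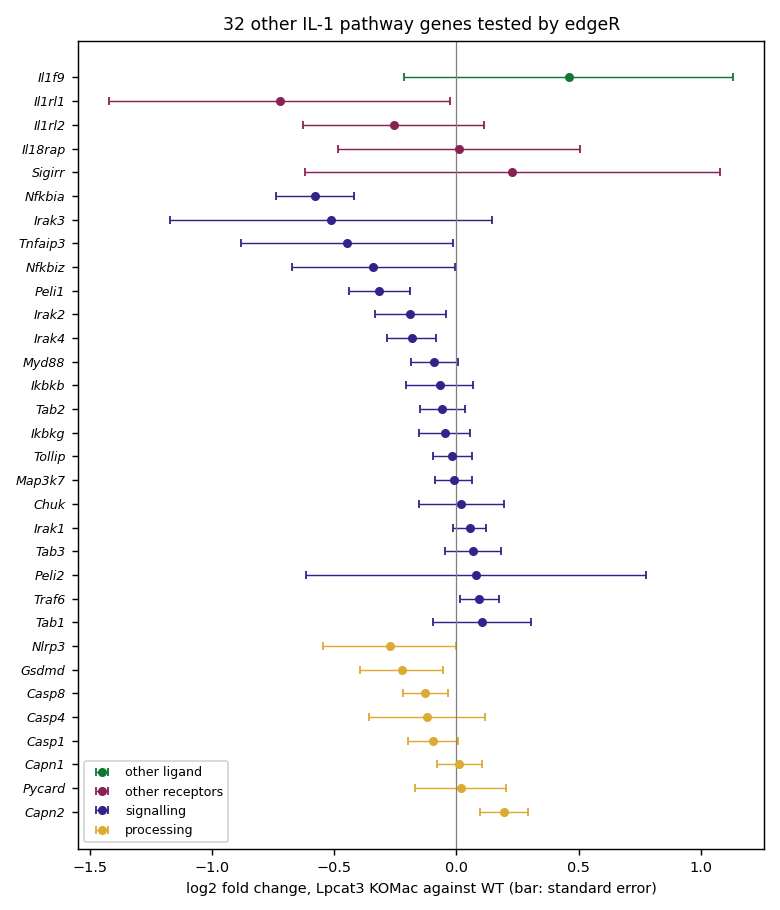
Log2 fold change of Lpcat3 KOMac against WT with standard errors from edgeR for the 32 other IL-1 system genes tested, grouped as ligand, receptors, signalling and processing. Most lie near 0, *Nfkbia* at -0.58 has a standard error of 0.16, and the widest errors belong to *Sigirr*, *Il1rl1* and *Peli2*.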

How the data were processed

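RNA from F4/80-positive liver cells of 3 WT and 3 Lpcat3 KOMac mice was sequenced as poly-A selected libraries. The authors deposited raw read counts per Ensembl gene, 1 table per library in featureCounts layout, with no normalization. The submitters' processing notes name Trimmomatic 0.36, STAR 2.5.2b, featureCounts (Subread 1.5.2) and GRCm38, and the strand setting and the handling of multi-mapped reads are not given in the sources used here. Symbols came from GENCODE M21 (49056 of 49315 identifiers found), and members had the same start and end there.

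The fit was made in R 4.3.3 with edgeR 4.0.16 (TMM, filter with a minimum count of 10, robust quasi-likelihood test, genotype as only term), with Benjamini-Hochberg adjustment over 16134 genes. SE is the absolute log2 fold change over the square root of F. Ratios used a pseudocount of 0.5 counts, and exact tests of single members used log2(CPM + 0.1). DESeq2 1.42.0 and limma 3.58.1 (voom) were alternatives, besides other scalings and filters, the replicate block, the hepatocyte covariate and leaving out mice. The scripts were tested on simulated data. Named were all 9 members, *Lpcat3*, 4 fixed genes of the wider system (*Casp1*, *Il1rl1*, *Il18r1*, *Il18rap*), those of its genes with an unadjusted p-value under 0.05, and the 3 genes nearest to *Il1b*. *Myd88*, *Irak3*, *Tnfaip3*, *Nfkbiz*, *Sigirr* and the genes at 0 counts were picked after their values were seen. Members and lists were chosen with earlier results of these data known. Depth was 44954224 to 71392812 counts, and counting error matters mainly for *Il1r2*, *Il33* and the scarce receptors. P-values measure the spread between these libraries.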

Additional observations from a re-analysis of the deposited data

How the results depend on the processing

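The genotype comparison called 0 genes in edgeR and in limma-voom under each setting, and 15 genes in DESeq2, none of them a member or another IL-1 system gene. Of 203 alternative values, 188 were unchanged in direction or side of the threshold, 14 changed sign, and 1 count of called genes moved. Some of these values are counts of called genes, which have no direction. Dropping the length or using the replicate block leaves each ratio difference the same by arithmetic, so its sign could not change. The fit without robust dispersion gave the same log2 fold changes as the main one. For the ratios, the exact test cannot go below 0.1, so staying above 0.05 was fixed in advance. With limma-voom the log2 fold change of *Il1rap* was 0.00052, and with the replicate block it was 0.12. Without WT mouse 1 and Lpcat3 KOMac mouse 2, a setting chosen after seeing the data, it was 0.53, that of *Il18* was -0.17 and the log2 ratio difference of *Il1b* to *Il1r2* was -1.16. The last was 0.24 in the main comparison, and -0.29 with a pseudocount of 5 counts. Why these values moved was not tested. With single mice left out, log2 fold changes ran from -0.052 to 0.30 for *Il1a*, from -0.13 to 0.27 for *Il18*, from -0.071 to 1.496 for *Il1r1* and from -0.68 to 0.87 for *Il1rap*. The log2 ratio differences ran from -0.50 to 0.16 for *Il1a* to *Il1rn* and from -0.61 to 1.15 for *Il1b* to *Il1r2*. The count of genes called stayed at 0 in all 6 such fits. *Il1r2* was fitted only with no filter, at -0.52.

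Replicate numbers 1 to 3 are shared by the genotypes but name different animals. Deviations from the genotype means correlated at -0.18 on average between libraries of the same number and at 0.11 between the others. These averages showed no sign of pairing by number, but the same-number values ran from -0.60 to 0.36. The highest correlation, 0.67, joined WT mouse 1 and Lpcat3 KOMac mouse 2, the hepatocyte-rich libraries. With so few libraries the check cannot settle whether a batch was shared by number. With the replicate block edgeR called 0 genes and took 138 at an unadjusted p-value under 0.05, against 426 without it.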
